A study of Mus musculus with 2 samples.

Results

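The Eph receptors and their ephrin ligands were represented by 10 of the 22 genes of the family on the arrays. They were read here from mouse keratinocytes labelled CHUK-LoxP mutant and from wild-type mouse keratinocytes. The members were chosen by gene symbol, with earlier results of these data known. Every gene probe on both arrays whose file name for the gene was Epha1, Epha2, Epha4, Ephb2, Ephb3, Ephb4, Ephb6, Efna1, Efnb1 or Efnb2 was taken, which gave 14 of 41174 gene probes, for 10 of 21337 named genes. They comprised 10 probes of 7 receptor genes and 4 probes of 3 ligand genes, and 4 of the genes had several probes. All 14 probes were well above background in both channels on both arrays, so none of them entered the test through a single bright channel. Of the 19 probes of the other 12 family genes, 9 were too dim to test, so full detection describes the chosen members and not the family.

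Total RNA of the CHUK-LoxP mutant keratinocytes (Cy5) and of the wild-type keratinocytes (Cy3) was hybridised together on 2 two-colour Agilent arrays, which are numbered as replicates of the same comparison. Chuk encodes the kinase IKKα, which belongs to the IκB kinase complex, and loxP sites mark the stretch of DNA that Cre recombinase removes. The sample titles do not say that this stretch was removed. Below, the channel labelled Chuk-deleted is the one with RNA of the CHUK-LoxP mutant keratinocytes, and the name Chuk-deleted was chosen here. The labels give no strain, age, Cre driver or culture time, and nothing states that the replicate RNAs came from separate cultures or animals, so p-values cover no more than the difference between 2 arrays, possibly a technical one. Both arrays carried the dyes the same way round, so dye and genotype cannot be told apart.

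Eph receptors are the largest family of receptor tyrosine kinases, and they are activated by ephrins on the surface of a touching cell. Ephrin-A ligands are held in the membrane by a lipid anchor, while ephrin-B ligands span it and signal back into the cell that carries them. In epidermis this exchange between neighbours acts on adhesion, sorting of cells into layers and the passage of keratinocytes from growth to differentiation, with EphA2 and ephrin-A1 the best studied pair.

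The promoters of Efnb1 and Efnb2 are shown because these B-type ligand genes carried the largest higher and the largest lower ratio among the members. Both are RefSeq sequences of GRCm38.p6, from 250 bases before to 50 bases after the gene start, read on the strand of the gene. Efnb1 lies on the plus strand at chrX:99135811-99136110 and Efnb2 on the minus strand at chr8:8661193-8661492. Capitals mark the GC box (GGGCGG, either strand).
Efnb1: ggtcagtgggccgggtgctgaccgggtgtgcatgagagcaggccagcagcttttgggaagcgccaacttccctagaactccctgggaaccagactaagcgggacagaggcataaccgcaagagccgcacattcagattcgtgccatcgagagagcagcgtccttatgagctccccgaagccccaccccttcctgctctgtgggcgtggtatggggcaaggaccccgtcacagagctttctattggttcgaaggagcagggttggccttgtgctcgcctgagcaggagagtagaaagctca
Efnb2: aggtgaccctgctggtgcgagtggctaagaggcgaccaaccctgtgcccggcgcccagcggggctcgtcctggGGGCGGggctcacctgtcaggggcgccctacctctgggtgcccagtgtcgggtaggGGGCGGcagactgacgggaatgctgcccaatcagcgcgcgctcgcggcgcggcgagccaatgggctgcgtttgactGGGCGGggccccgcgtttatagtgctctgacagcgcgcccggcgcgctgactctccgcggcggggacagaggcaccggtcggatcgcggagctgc
The Efnb2 window held 3 GC boxes and the Efnb1 window none, against 35.7% of 32851 promoters of the same length with at least 1. Neither window held a match to the κB consensus (present in 8.46% of promoters), to the AP-1 motif TGANTCA (7.81%) or to the E-box CACGTG (7.15%), all searched on both strands. The 10 genes had 11 such windows, since Efna1 has a pair of starts, and 9 of them held a GC box. The 11 windows were 54.7 to 76.3% G and C, with Efnb2 at 72.3% and Efnb1 at 59.7%, against a median of 52.7% over all promoters. The part of base composition in the GC box matches was not tested. A κB consensus match occurred in 1, that of Ephb2, 211 bases before its start.

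The median gene spot had an intensity of 218 and 171.5 in Cy5 on arrays 1 and 2, against 109.9 and 95.2 in Cy3, over backgrounds of 72 to 74 in Cy5 and 41 to 42 in Cy3. Values below are log2 normalised intensities of a probe, which cannot be compared between probes, and log2 ratios of the channel labelled Chuk-deleted over the channel labelled wild type (mean ± SD, n = 2 arrays). Rose and fell mark a ratio past an adjusted p of 0.05 in the limma fit over all tested probes, with Benjamini-Hochberg adjustment. The targeted gene went against the label. Chuk probe A_51_P223475 gave 0.73 and 0.75 on the arrays (mean 0.74 ± 0.02, adjusted p = 0.000101, limma) and probe A_52_P386468 gave 0.93 and 0.78 (mean 0.85 ± 0.11, adjusted p = 0.000103, limma). With the zero set by spike-in controls, as described next, the first lay at -0.020 and the second at 0.095 (adjusted p = 0.870 and 0.439, limma). The sources used here do not place the stretch between the loxP sites relative to these probes, and probes beyond it are no check of the label. Whether the stretch was removed in these cells was not tested. The directions below therefore rest on the channel labels.

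A zero of the log2 scale also has to be chosen. Loess within each array sets it along the range of brightness. Centring each array on its median alone, with no loess, moved the median of all tested probes up by 0.45, and subtracting from each array its mean spike-in ratio (the spike-in zero below) moved it down by 0.76. The 10 spike-in sequences themselves ranged from -2.07 to 3.70, so their mean is a coarse zero. Another value is given where it matters, namely median centring with each array then brought back to the loess median, a setting chosen after the data were seen. Neither form of median centring removes a trend of the ratio with brightness, so both differ from loess by more than a moved zero. Relative to the median of all probes, the ratios on the spike-in zero equal the loess ratios.

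Efnb1 encodes ephrin-B1, a transmembrane ligand that sorts cells into territories and whose human counterpart is mutated in craniofrontonasal syndrome. Its probe A_51_P388478 had log2 levels of 14.53 and 14.94 in the channel labelled Chuk-deleted, against 13.004 and 13.14 in the wild-type channel. Both mutant levels stood above both wild-type levels. The log2 ratios were 1.52 and 1.81, and Efnb1 rose 3.17-fold (mean 1.66 ± 0.20, 95% confidence interval of the fold 2.78 to 3.60, adjusted p = 3.52e-05, limma). The gene stood at rank 67 from the top of 23519 tested probes. Efnb1 was higher under each scaling, at 2.42 with median centring alone, 1.97 after bringing this back, 1.70 with the scanner software's own ratio and 0.91 on the spike-in zero.

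Efnb2 encodes ephrin-B2, the ligand that marks arteries in the vessel tree and binds EphB4. Probe A_52_P340073 had levels of 12.77 and 12.06 in the channel labelled Chuk-deleted and 13.89 and 13.31 in the wild-type channel. The groups did not overlap, and the log2 ratios were -1.12 and -1.25, so that Efnb2 fell 2.27-fold (mean -1.18 ± 0.09, adjusted p = 4.01e-05, limma). The dimmer probe A_51_P380970 had levels of 8.06 and 7.51 in the channel labelled Chuk-deleted, against 8.53 and 8.39 in the wild-type channel, and its ratios were -0.47 and -0.88 (mean -0.68 ± 0.29, adjusted p = 0.00148, limma). Both probes of Efnb2 were lower under each scaling. With median centring alone they lay at -0.47 and -0.31, and on the spike-in zero at -1.94 and -1.43, the brighter probe first in each pair. Within each array the ratio of Efnb1 thus exceeded that of the brighter Efnb2 probe by 2.64 and 3.06 log2 units, a difference that no shift of the zero changes.

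Ephrin-A1, the product of Efna1, is the lipid-anchored ligand of EphA2. Its probe A_51_P266683 had levels of 9.95 and 10.38 in the channel labelled Chuk-deleted and 10.15 and 10.67 in the wild-type channel. The ranges of the groups overlapped, and on each array the mutant channel was the lower. Efna1 fell 1.18-fold, with -0.19 and -0.29 on the arrays (mean -0.24 ± 0.07, adjusted p = 0.00965, limma). It was higher, at 0.35, with median centring alone, lay at -0.10 after bringing this back (adjusted p = 0.292, limma) and missed the threshold with the software's ratio (-0.26, adjusted p = 0.0506, limma). In the RefSeq gene order Efna1, Efna3 and Efna4 are direct neighbours on chromosome 3. Efna3 gave -0.42 and -0.74 (mean -0.58 ± 0.23, adjusted p = 0.00141, limma, and -0.0060 with median centring alone), and Efna4 gave -0.09 and -0.12 (adjusted p = 0.122, limma).

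**Figure D1:**
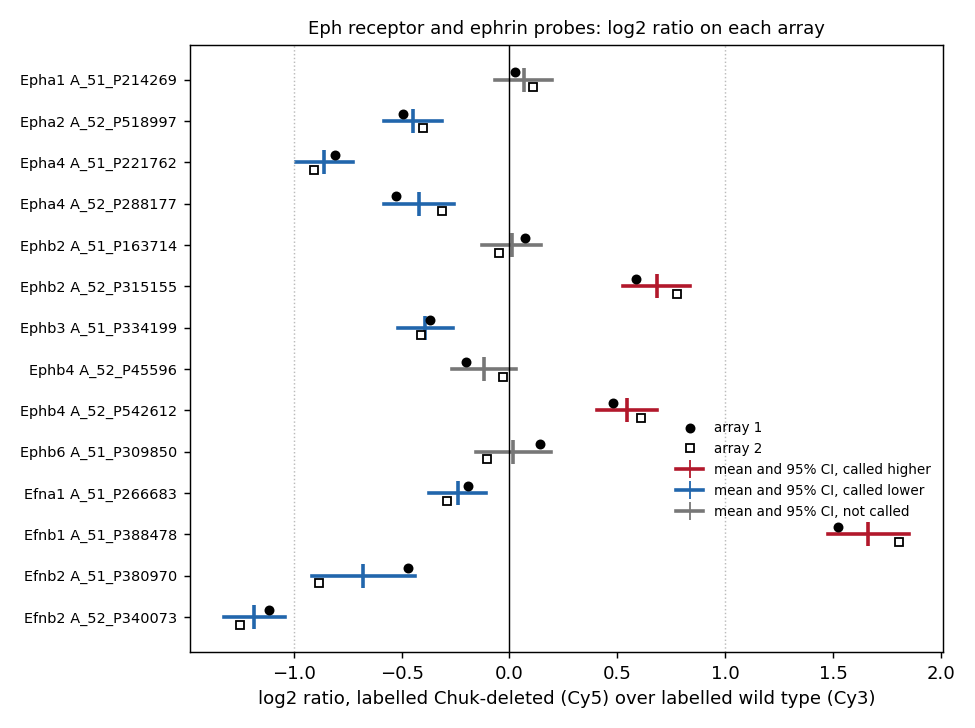
Log2 ratio of the channel labelled Chuk-deleted over the channel labelled wild type for the 14 probes, with array 1 as filled circles, array 2 as open squares, and the mean with its 95% confidence interval from limma as a bar (red rose, blue fell, grey did not pass). Dotted lines mark a 2-fold difference, which Efnb1 exceeded upwards and the brighter Efnb2 probe downwards on both arrays; with median centring alone, Epha2, Ephb3, Efna1 and the second Epha4 probe turned to higher, and the spike-in zero turned the Ephb2 and Ephb4 bars shown in red to lower.

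Under loess the A-type receptors gave 1 gene near zero and a pair of genes that fell. Epha1, the founding member of the receptor family and a gene of epidermis, had levels of 13.99 and 14.35 in the channel labelled Chuk-deleted and 13.97 and 14.24 in the wild-type channel (probe A_51_P214269). Its ratios were 0.02 and 0.11, with a 95% interval of the fold from 0.956 to 1.15 (adjusted p = 0.329, limma). The ranges of the groups overlapped. Epha1 lay at 0.83 with median centring alone and at -0.69 on the spike-in zero. After median centring was brought back to the loess median it passed as higher, at 0.39 (adjusted p = 0.000299, limma).

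Epha2, the receptor that sits at cell contacts of keratinocytes and binds ephrin-A1, had levels of 14.71 and 15.09 in the channel labelled Chuk-deleted against 15.20 and 15.49 in the wild-type channel (probe A_52_P518997). Both mutant levels were below both wild-type levels, with ratios of -0.49 and -0.40. Epha2 fell 1.36-fold under loess (mean -0.45 ± 0.07, 95% interval -0.58 to -0.31, adjusted p = 0.000767, limma) but was higher, at 0.38, with median centring alone. After this was brought back to the loess median the value was -0.07 (adjusted p = 0.45, limma). Its mean moved further between loess and median centring alone than that of any other of the 14 probes.

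Epha4 encodes a receptor that binds ephrins of both types. On probe A_51_P221762 its levels were 8.59 and 8.79 in the channel labelled Chuk-deleted and 9.40 and 9.70 in the wild-type channel, without overlap. This probe gave -0.81 and -0.90 on the arrays and fell 1.81-fold (mean -0.86 ± 0.07, adjusted p = 7.78e-05, limma), and was lower under each scaling, at -0.35 with median centring alone. Probe A_52_P288177 had levels of 10.98 and 11.67 in the channel labelled Chuk-deleted and 11.50 and 11.99 in the wild-type channel, which overlap. It gave -0.53 and -0.31 and fell 1.34-fold (mean -0.42 ± 0.15, adjusted p = 0.00219, limma), and lay at 0.23 with median centring alone. Both Epha4 probes are assigned to the same transcript record, and their ratios differed by 0.28 on array 1 and 0.59 on array 2.

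**Figure D2:**
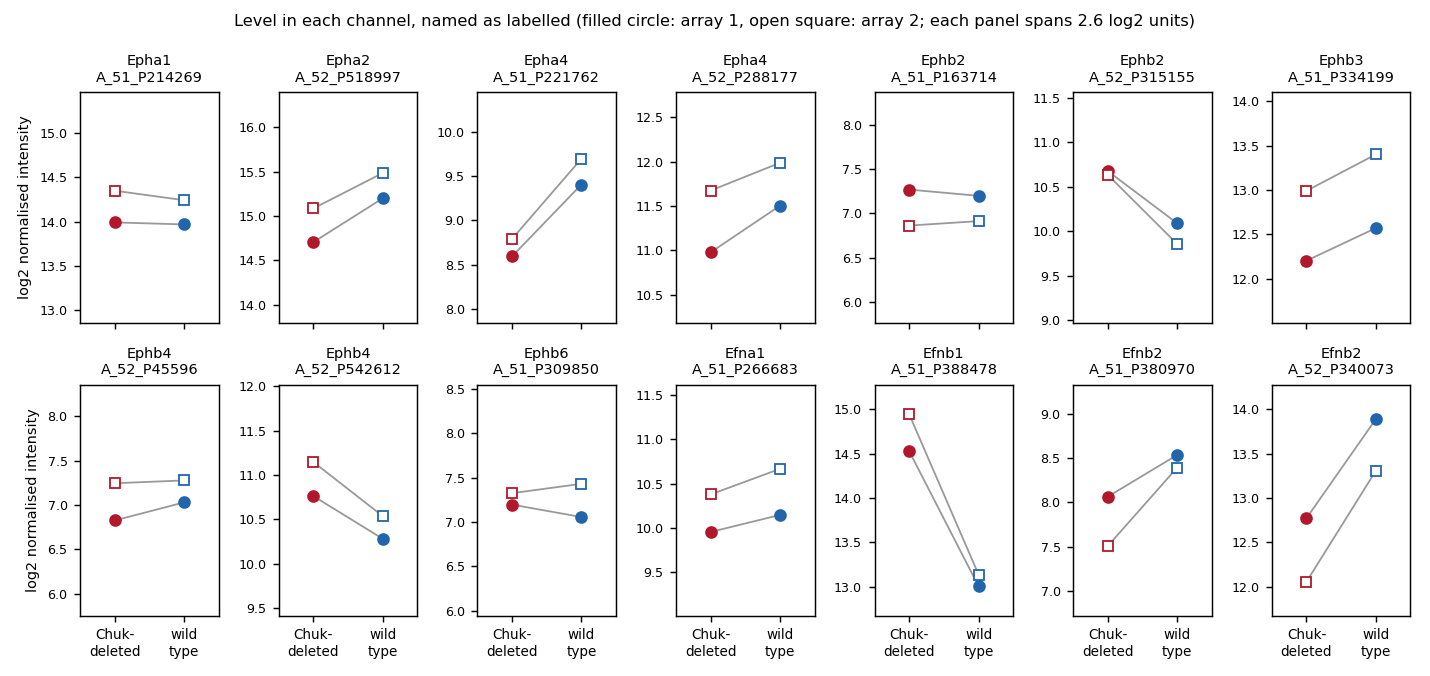
Log2 normalised intensity of each of the 14 probes in the channel labelled Chuk-deleted (left, red) and the channel labelled wild type (right, blue), with array 1 as filled circles and array 2 as open squares joined within an array. The steepest line down to wild type is that of Efnb1 (14.53 and 14.94 against 13.004 and 13.14), and the steepest line up is that of the brighter Efnb2 probe (12.77 and 12.06 against 13.89 and 13.31).

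Among the B-type receptors Ephb2 and Ephb4 each had, under loess, 1 bright probe that rose and 1 dim probe near zero. With median centring brought back, the dim probes passed as lower, at -0.35 for Ephb2 and -0.46 for Ephb4 (adjusted p = 0.00125 and 7.26e-05, limma). The bright probes stayed higher there, at 0.83 and 0.71, so the probes of each gene then passed in opposite directions. Median centring alone moved the dim probes from 0.010 to 0.095 for Ephb2 and from -0.12 to -0.010 for Ephb4. It moved the bright ones from 0.68 to 1.28 and from 0.55 to 1.16. Without loess a trend of the ratio with brightness is not removed, and its part in these directions was not tested. Ephb2 encodes a receptor of ephrin-B ligands that holds cell layers apart in the gut. Its probe A_52_P315155 had levels of 10.68 and 10.63 in the channel labelled Chuk-deleted against 10.09 and 9.86 in the wild-type channel, with no overlap. This probe rose 1.61-fold, with ratios of 0.59 and 0.78 (mean 0.68 ± 0.13, adjusted p = 0.000272, limma), and lay at -0.075 on the spike-in zero. Probe A_51_P163714 had levels of 7.27 and 6.86 in the channel labelled Chuk-deleted and 7.20 and 6.91 in the wild-type channel, and its ratios of 0.07 and -0.05 did not pass (adjusted p = 0.885, limma).

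Ephb4, the receptor of ephrin-B2 best known from veins, followed the same form. Probe A_52_P542612 had levels of 10.76 and 11.15 in the channel labelled Chuk-deleted and 10.28 and 10.54 in the wild-type channel. The groups did not overlap, and the probe rose 1.46-fold, with ratios of 0.48 and 0.61 (mean 0.55 ± 0.09, adjusted p = 0.000421, limma), while the spike-in zero put it at -0.21. Probe A_52_P45596, which the files assign to a partial kinase sequence rather than to the RefSeq transcript, had levels of 6.83 and 7.25 in the channel labelled Chuk-deleted and 7.03 and 7.28 in the wild-type channel. Its ratios of -0.20 and -0.03 did not pass (adjusted p = 0.144, limma). The probes of Ephb4 differed by 0.68 and 0.64 log2 units on the arrays and those of Ephb2 by 0.52 and 0.83, and in both genes the probe that did not pass was the dimmer. Raw Cy5 intensities of the dim probes were 148 to 252 and their raw Cy3 intensities 89.3 to 119, close to the median spot.

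Ephb3, a close relative of Ephb2, had levels of 12.20 and 12.99 in the channel labelled Chuk-deleted against 12.57 and 13.40 in the wild-type channel (probe A_51_P334199). The arrays differed in level by more than the channels did, so the groups overlapped, but the ratios were alike at -0.37 and -0.41. Ephb3 fell 1.31-fold (mean -0.39 ± 0.03, adjusted p = 0.00107, limma), was higher at 0.31 with median centring alone, and lay at -0.14 after bringing this back (adjusted p = 0.135, limma). Ephb6, a receptor whose kinase domain is inactive, had levels of 7.20 and 7.32 in the channel labelled Chuk-deleted and 7.06 and 7.43 in the wild-type channel (probe A_51_P309850). Its ratios were 0.14 and -0.11 (95% interval of the fold 0.898 to 1.14, adjusted p = 0.847, limma), so the arrays disagreed in sign.

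Of the 14 probes, 3 rose, 7 fell and 4 did not pass. These calls come from a fit in which 61.4% of all tested probes passed, 33.5% as higher and 27.9% as lower, so 10 of 14 probes (71.4%) is a share near the background. The receptor genes gave 2 higher and 4 lower of 10 probes, and the ligand genes 1 higher and 3 lower of 4 probes. These count probes and not genes, since both Epha4 probes and both Efnb2 probes are among the falls. The median ratio over the 14 probes was -0.18, beside 0.02 over all tested probes. At least 2-fold on both arrays, 1 probe was higher (Efnb1) and 1 lower (Efnb2), in a background of 1.46% higher and 2.38% lower, or 3.84% together. The split of calls over all probes depends on the scaling. It was 7873 higher to 6573 lower under loess, 16402 to 1581 with median centring alone and 476 to 21179 on the spike-in zero. Each scaling was fitted anew with its own prior variance, so these counts do not reflect a moved zero alone.

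**Figure D3:**
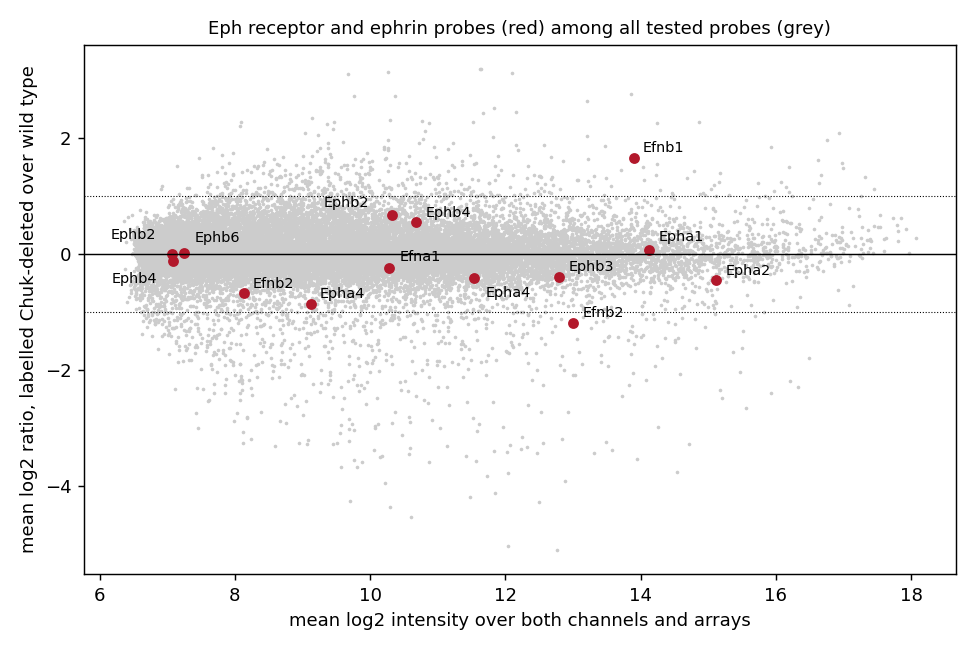
Mean log2 ratio of the channel labelled Chuk-deleted over the wild-type channel (vertical) against mean log2 intensity (horizontal) for 23519 tested probes in grey and the 14 Eph and ephrin probes in red, with dotted lines at a 2-fold difference. Efnb1 stands at 1.66 and the brighter Efnb2 probe at -1.18, outside the dotted lines, and the other 12 probes lie between them.

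**Figure D4:**
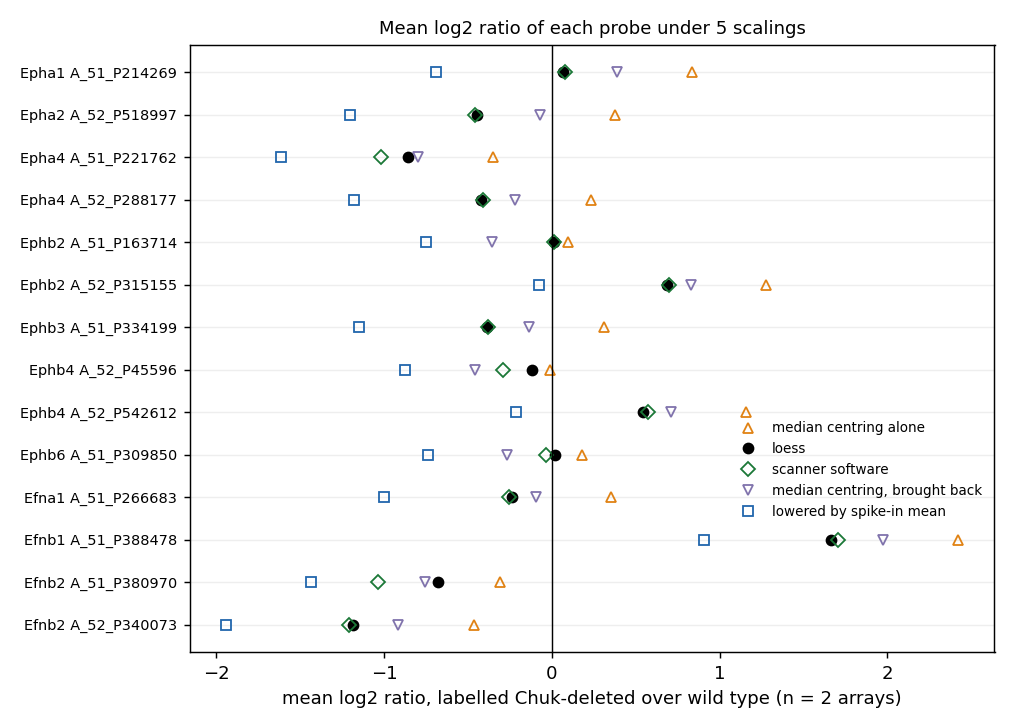
Mean log2 ratio (n = 2 arrays) of each of the 14 probes under 5 scalings, namely median centring alone, loess, the scanner software's ratio, median centring brought back to the loess median, and loess ratios on the spike-in zero. Efnb1 stays right of zero and both Efnb2 probes and Epha4 probe A_51_P221762 stay left of zero under each of them, whereas Epha2, Ephb3, Efna1 and the other Epha4 probe lie right of zero with median centring alone, and the bright Ephb2 and Ephb4 probes lie left of it on the spike-in zero.

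The sign of the ratio held under loess, median centring alone, the software's ratio and the spike-in zero for 5 of the 14 probes. They are Efnb1, both Efnb2 probes, Epha4 probe A_51_P221762 and Ephb4 probe A_52_P45596, which was not called under loess. With median centring alone 10 of the 14 probes were above zero, and on the spike-in zero 13 were below it.

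The other 12 receptor and ligand genes of the family had 19 probes, of which 10 probes of 8 genes were bright enough to test. Epha6, Epha8, Epha10 and Ephb1 had no tested probe. In these tests 3 probes rose, 3 fell and 4 did not pass. One of the rises, Epha3 probe A_51_P246133, entered the test through Cy5 alone, and with both channels required 2 probes rose. Epha3, a receptor known from mesenchymal cells, rose on probe A_52_P276955, with ratios of 0.76 and 0.58 (mean 0.67 ± 0.13, adjusted p = 0.000276, limma), and lay at -0.086 on the spike-in zero. On probe A_51_P246133 Epha3 passed as higher, with ratios of 0.14 and 0.33 (mean 0.24 ± 0.14, adjusted p = 0.0184, limma). The Cy3 signal of this probe failed the background test on both arrays. The bound on its fold, with Cy3 set no lower than the smallest signal well above background, was 1.17. This bound leaves out the spread between the arrays, whose lower confidence limit of the fold was 1.06, and is open to dye bias. The ratio of this probe lay at 0.067 with median centring alone (adjusted p = 0.581, limma) and at -0.52 on the spike-in zero. With median centring brought back it passed as lower, at -0.38 (adjusted p = 0.000458, limma). Efna5, an A-type ligand, fell on probe A_51_P144319, with ratios of -0.59 and -0.55 (mean -0.57 ± 0.03, adjusted p = 0.000246, limma), but lay at 0.14 with median centring alone, and its dim probe A_51_P218009 gave -0.02 and -0.10. Efna2 rose by 0.20 ± 0.07 and Epha5 fell by 0.15 ± 0.02, with adjusted p of 0.0176 and 0.0406 by limma, and Efna2 lay at -0.55 on the spike-in zero and -0.079 with median centring brought back. Epha5 missed the threshold without the filter on dim probes (adjusted p = 0.0659, limma) and with median centring alone (-0.19, adjusted p = 0.0966, limma). Efnb3 (-0.03 ± 0.13) and Epha7 (0.08 ± 0.14, with Cy3 well above background on 1 array) did not pass.

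Under loess, genes whose products act with Eph receptors or ephrins passed in both directions, with a larger share lower than among all genes. They were taken as a list of 48 adaptors, kinases, phosphatases, exchange factors, proteases and PDZ proteins, each represented by its brightest tested probe. Of 47 tested, 15 rose (31.9%) and 21 fell (44.7%), in a background of 33% of genes higher and 28.3% lower. Grb7 alone exceeded a 2-fold difference on each array, which 4.71% of all genes did. The median ratio of the list was -0.06, beside 0.02 for all 13739 genes tested. With median centring alone 35 were higher and 1 lower, and on the spike-in zero 1 was higher and 44 were lower. With median centring brought back 17 were higher and 13 lower.

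The largest rises were those of Pik3r1 and Adam19. Pik3r1, the regulatory subunit gene of PI3-kinase, gave 0.98 and 1.25 (mean 1.12 ± 0.19, 2.17-fold, adjusted p = 8.77e-05, limma). Adam19, a metalloprotease of the cell surface, gave 0.80 and 1.002 (mean 0.90 ± 0.14, adjusted p = 0.000115, limma). Both stayed above zero on the spike-in zero, at 0.36 and 0.14, the second without passing the threshold. Rgs3, whose long form binds ephrin-B tails, rose by 0.61 ± 0.19, the phosphatase gene Ptpn1 by 0.50 ± 0.08, the kinase gene Abl1 by 0.42 ± 0.02 and the Rac inhibitor gene Chn2 by 0.42 ± 0.04, and the spike-in zero put these 4 between -0.34 and -0.15.

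The largest fall was that of Grb7, an adaptor of receptor tyrosine kinases, with -1.16 and -1.55 (mean -1.36 ± 0.27, 2.56-fold, adjusted p = 9.69e-05, limma), and it stayed lower, at -0.67, with median centring alone. Yes1, a kinase of the Src family, lay at -0.75 ± 0.04. The Rac exchange factor genes Tiam1 and Kalrn lay at -0.72 ± 0.18 and -0.71 ± 0.02. Nck2, an adaptor of ephrin-B tails, lay at -0.68 ± 0.01 and Afdn, a PDZ protein of junctions, at -0.67 ± 0.01. All 5 fell under loess (adjusted p from 0.000103 to 0.000346, limma), while median centring alone put them between -0.23 and 0.08, with only Afdn above zero. In 4 of the tested genes, chosen here after their values were seen, probes passed in opposite directions. These were Nck1, Nck2, Rac1 and Rgs3, with Nck2 probe A_51_P133422 at 0.21 and Rgs3 probe A_51_P211980 at -0.70.

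**Figure D5:**
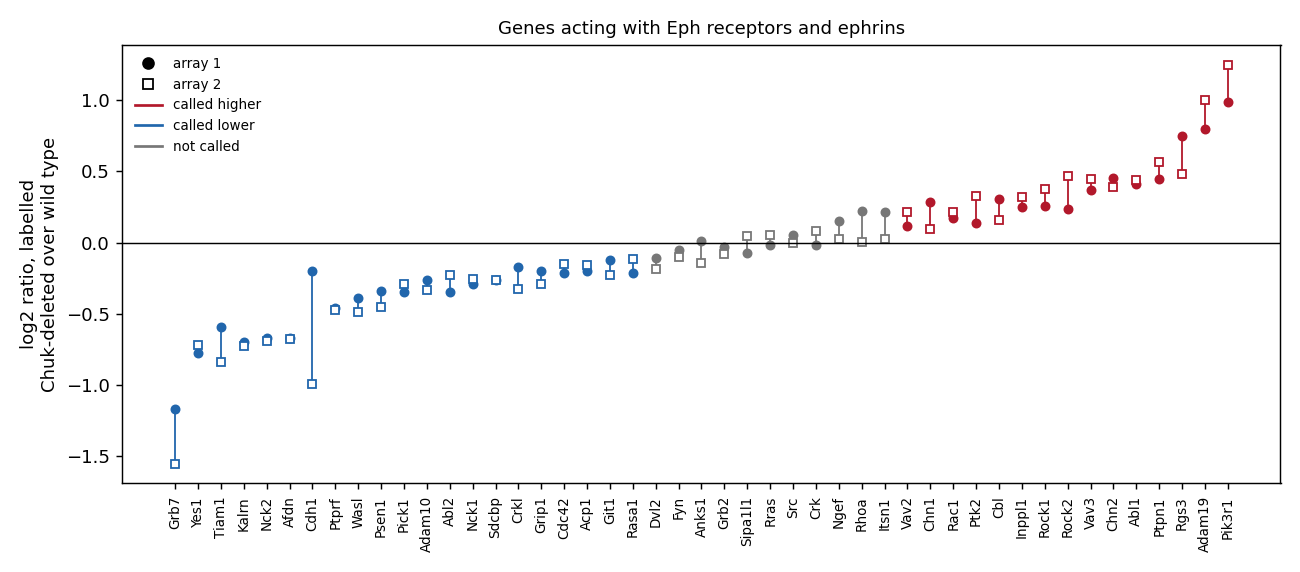
Log2 ratio of the channel labelled Chuk-deleted over the wild-type channel on array 1 (filled circles) and array 2 (open squares) for 47 tested genes that act with Eph receptors and ephrins, in order of their mean and coloured by the limma call under loess. The order runs from Grb7 at -1.36 to Pik3r1 at 1.12, with calls on both sides of zero; with median centring alone 35 passed as higher, and on the spike-in zero 44 passed as lower.

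Markers of cell types and layers moved beside these genes. Keratinocyte markers of the basal layer were bright in both channels, among them Krt5 and Krt14, which matches the labelled cell type. Of 11 basal markers 9 rose and 2 fell under loess (median 0.90, and 0.14 on the spike-in zero, where 3 turned to lower), with summed intensities of 1136986 and 1167441 in the channel labelled Chuk-deleted and 784003 and 771457 in the wild-type channel. Of 12 suprabasal markers 8 were well above background in both channels on both arrays, and all 8 fell under loess (median -2.11, and -1.60 with median centring alone, where 1 of them, Krt10, lay at 0.29). Among the other tested ones, Dsg1a and Krt1 were not well above background in Cy5 on either array, so they entered the test through Cy3 alone, and Dsc1 was well above background in Cy5 on 1 array. The sums over the 12 were 31655 and 22281 in the channel labelled Chuk-deleted, against 96692 and 127516 in the wild-type channel. Bright probes weigh most in such sums. The brightest tested suprabasal marker was Sbsn, with log2 levels of 14.66 and 14.23 against 16.22 and 16.73, and it made up most of each sum. Of 10 fibroblast markers 8 rose and 1 fell under loess (median 0.73, and -0.03 on the spike-in zero, where 4 of the 10 turned to lower), with sums of 110346 and 105217 against 65557 and 55768. All 6 tested melanocyte markers fell under loess (median -1.15, and -0.55 with median centring alone, where Sox10 lay at 0.39), with sums of 20167 and 17909 against 48313 and 49598.

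Endothelial markers, of interest because Efnb2 and Ephb4 are genes of vessels, had sums of 1854 and 1850 in the channel labelled Chuk-deleted and 1742 and 1745 in the wild-type channel, over all 9 genes and so with dim, untested ones included. Of the 9, Kdr and Vwf were tested. Kdr lay at 0.21 (adjusted p = 0.0127, limma, and -0.55 on the spike-in zero), and Vwf at -0.43 (adjusted p = 0.000745, limma), with Cy5 well above background on 1 array. Pecam1, Tek, Emcn and Cldn5 were not well above background in either channel on either array. Of 7 immune cell markers 3 were tested. Adgre1 lay at -1.15 (adjusted p = 7.24e-05, limma), with Cy5 well above background on 1 array. Cd3e lay at 0.21 (adjusted p = 0.0255, limma, and -0.55 on the spike-in zero), with Cy3 well above background on 1 array. Fcer1g, at -0.12, did not pass (adjusted p = 0.122, limma). The sums over all 7, untested ones included, were 714 and 732 in the channel labelled Chuk-deleted and 819 and 812 in the wild-type channel, and Ptprc, Cd207 and Itgam were not well above background anywhere. The part of the keratinocyte layers, fibroblasts and melanocytes in the Eph and ephrin ratios was not tested. In bulk RNA, fewer cells of a type and less RNA per cell cannot be told apart.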

How the data were processed

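On each array the Cy5 channel held total RNA of the CHUK-LoxP mutant keratinocytes, here called Chuk-deleted, and the Cy3 channel total RNA labelled wild type. Per the file headers, the authors' files were written by Agilent Feature Extraction 9.1.3.1. The deposited intensity of a spot is a mean over its pixels, and its local background a median, per the file headers neither corrected nor dye normalised. The deposited log10 ratio of Cy5 over Cy3 comes from the software's background-subtracted, detrended and dye-normalised signals. The other deposited columns used are flags. The deposited series table equalled that log10 ratio to within 0.005, so scale and direction are the software's, and both its medians were 0.

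In R 4.3.3 with limma 3.58.1, intensities were corrected by normexp (offset 50), log2 ratios normalised array by array with loess (control spots weighted 0), and outlier spots left out (51 and 18 on the arrays). A probe was tested where each array had it well above background in Cy5 or Cy3, 23519 in all, by lmFit and eBayes against 0, two-sided, with Benjamini-Hochberg adjustment (1 residual and 5.16 prior degrees of freedom). Each alternative setting was fitted anew with its own prior, so its adjusted p-values are not on the same footing as those under loess. Levels per channel are after Aquantile. Precision is limited by the 2 arrays, whose ratios correlated across probes (Pearson's r = 0.956, Spearman's rho = 0.943). A bound on a fold sets the bright channel's mean against the dim channel's mean of, per array, its own signal or, where higher, the smallest signal among probes well above background. The fit was tested on simulated data.

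Symbols came from RefSeq (GRCm38.p6), 16129 probes by accession and 4721 by symbol or synonym. The members matched in the promoter table were 10 of 10. The members and lists were chosen with earlier results of these data known. Named genes were all members, Chuk, every tested Eph or ephrin gene, and of the partner genes that passed and had 1 sign on the arrays the 6 with the largest rise and the 6 with the largest fall. The rule also allowed the brightest markers of each list, of which Krt5, Krt14, Sbsn, Kdr, Vwf, Adgre1, Cd3e and Fcer1g are named. The other named markers were named after their values were seen. Genes of like pattern are not named, since 2 ratios per gene give no measure of likeness. Alternatives changed the background correction, the scaling, the filter on dim probes, the variance model and the arrays used.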

Additional observations from a re-analysis of the deposited data

How the results depend on the processing

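The software's ratio, the intensity trend and the filter needing both channels left each count of calls within 1.5 times of its value under loess. Without the filter on dim probes 5 probes of the 12 other family genes rose in place of 3. With the software's ratio 12 partner genes rose and 16 fell, against 15 and 21 under loess, and 6797 of all probes were higher and 5470 lower. Only Eph and ephrin probes, Chuk and the named partners were followed singly. Among them the calls lost were Efna1 with the software's ratio (-0.26) and Epha5 without the filter (adjusted p = 0.0659, limma). Epha3 probe A_51_P246133 was not tested with both channels required. Taking the mean over probes of a partner gene kept both counts within that range. With 1 array left there is no test, and without replicate 1 or 2 the counts of probes at least 2-fold apart were 1 higher and 1 lower each time. No paired analysis was possible because the arrays form 1 group.

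Scaling moved most counts. With median centring alone 8 member probes rose and 3 fell, against 3 and 7 under loess, and 3 were at least 2-fold higher and 0 lower, against 1 and 1. Partner genes numbered 35 higher and 1 lower, other family probes 0 lower, and all probes 16402 higher and 1581 lower. On the spike-in zero, 1 member probe rose and 11 fell, with 0 at least 2-fold higher and 6 lower. Partner genes then numbered 1 and 44, other family probes 0 and 9, and all probes 476 and 21179. With median centring brought back to the loess median, an alternative chosen after seeing the data, 0 member probes were at least 2-fold lower, 13 partner genes fell, and of the other family probes 1 rose and 7 fell.

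Among probes that passed under loess or under the alternative, directions that turned with median centring alone were those of Efna1 (0.35), Epha2 (0.38), Epha4 probe A_52_P288177 (0.23), Ephb3 (0.31), Efna4 (0.49), Efna5 probe A_51_P144319 (0.14) and Afdn (0.077). On the spike-in zero they were those of Epha1 (-0.69), Ephb2 probes A_52_P315155 (-0.075) and A_51_P163714 (-0.75), Ephb4 probe A_52_P542612 (-0.21), Ephb6 (-0.74), Epha3 probes A_52_P276955 (-0.086) and A_51_P246133 (-0.52), Epha7 (-0.68), Efna2 (-0.55), Abl1 (-0.33), Chn2 (-0.34), Ptpn1 (-0.25), Rgs3 (-0.15) and Chuk probe A_51_P223475 (-0.020). With median centring brought back they were those of Ephb2 probe A_51_P163714 (-0.35), Ephb6 (-0.27), Epha3 probe A_51_P246133 (-0.38), Epha7 (-0.45) and Efna2 (-0.079). Among probes that passed under neither, Efnb3 (0.15) and Efna5 probe A_51_P218009 (0.091) turned with median centring alone, Efna4 (0.042) with it brought back and Ephb6 (-0.034) with the software's ratio. The cause was not tested.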
